A study of Mus musculus with 3 samples.

Results

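The T cell receptor (TCR) alpha and delta locus was described in exome DNA by the depth and the parental origin of reads at SNPs between the B6 and CAST strains. Its members were all SNPs listed on chromosome 14 from the first variable segment, Trav1, to the constant gene of the alpha chain, Trac (GRCm38, chr14:52427928-54224206), and these were 411 of the 452304 SNPs of the series. Of the members, 379 lie in TCR gene segments and 32 in 7 other genes of the interval, among them olfactory receptor genes. Of 202 annotated segments and constant genes, 94 held a SNP and 87 had at least 20 counts in E6.2.

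All cells are female C57BL/6 x CAST/EiJ F1 cells (C57BL/6J in the methods) with a B6 mother and a CAST father, and there was 1 library for each of 3 recipient animals. Hematopoietic stem cells (HSCs) that carry the Ly5.2 marker were injected into sub-lethally irradiated F1 recipients carrying both Ly5.1 and Ly5.2, and donor-derived cells were sorted 12 weeks later. E6.2 is a polyclonal animal that received 50 HSCs, and its library holds DNA of 58000 B220+IgM+ B cells, whose tissue is spleen in the labels and bone marrow in the methods. In each monoclonal animal 1 HSC was injected, and DNA was taken from CD4+CD8- thymocytes, 250000 of them for E6.43 and 177000 for E15.10. Donor animal 6 supplied the HSCs of E6.2 and of E6.43, and donor animal 15 supplied that of E15.10. Cell type, clonality and animal cannot be told apart between E6.2 and the T cell libraries, and no value below has a replicate error.

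A T cell assembles the alpha chain gene by joining a V segment to a J alpha segment. The DNA between them is cut out, and it always contains the D, J and C segments of the delta chain, which lie between the V and J alpha segments. The RAG recombinase cuts at a recombination signal beside each segment, made of a conserved heptamer and nonamer with a spacer between them. The alpha gene can be rearranged again with V segments further upstream and J segments further downstream, on both chromosomes, whereas Trac lies beyond all J alpha segments. Each T cell makes its own joins, so the descendants of 1 HSC still carry many different rearrangements, and B cells normally leave this locus unrearranged. Read depth in T cells relative to B cells is therefore taken as a measure of how much of this DNA is left in the cells. DNA still on the chromosome and any cut-out DNA that remains in the cells were not told apart. The B6 share of the counts (allelic imbalance, AI) is a measure of how this DNA is divided between the parental chromosomes.

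The signals beside segments from several stretches of the locus are shown because they mark where a deletion of the alpha locus can begin or end. Sequences are of the B6 reference (GRCm38) on the plus strand, and capitals mark the positions of the heptamer and the nonamer, set by the spacing of 23 bases after a V segment and of 12 bases before a J segment. The V segments are given with the last 20 bases of the segment, which precede the capitals. Trav3-1 lies at the upstream end (chr14:52581194-52581252), Trav6-7-dv9 can join to alpha or delta segments (chr14:53710400-53710458) and Trdv4 is the last V segment with a SNP before the D segments (chr14:54075496-54075554).
Trav3-1: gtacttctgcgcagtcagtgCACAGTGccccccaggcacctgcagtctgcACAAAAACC
Trav6-7-dv9: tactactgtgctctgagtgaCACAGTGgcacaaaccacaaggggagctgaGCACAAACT
Trdv4: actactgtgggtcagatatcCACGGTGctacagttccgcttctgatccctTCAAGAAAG

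Trdd1 is a delta D segment of 11 bases (chr14:54113468-54113478) with a signal on either side (chr14:54113440-54113517), and its only SNP is the first base of the segment, directly after the first heptamer. The J alpha segments are given with their first 20 bases after the signal: Traj53 near the upstream end (chr14:54162616-54162663), Traj32 in the middle (chr14:54186073-54186120) and Traj2 at the downstream end (chr14:54217808-54217855).
Trdd1: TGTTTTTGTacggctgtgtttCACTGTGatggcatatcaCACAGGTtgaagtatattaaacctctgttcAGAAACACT
Traj53: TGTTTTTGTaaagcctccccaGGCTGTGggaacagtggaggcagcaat
Traj32: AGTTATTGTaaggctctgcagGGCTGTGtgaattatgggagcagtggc
Traj2: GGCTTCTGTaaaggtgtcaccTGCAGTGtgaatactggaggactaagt

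The SNP of Trac lies in exon 2 of the gene (chr14:54222106-54222150), behind every J alpha segment, and is in capitals.
Trac: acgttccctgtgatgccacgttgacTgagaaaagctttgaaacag

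The exact heptamer CACAGTG stood directly after 104 of 135 V segments on the plus strand, and 128 of them had its first 3 bases, CAC. Before the 60 J alpha segments its complement CACTGTG was exact in 15 and its last 3 bases, GTG, were present in 48. At single positions of the interval, CACAGTG or its reverse complement began at 0.0297%. These matches describe the reference only. Of the 379 SNPs, 330 lie inside their annotated segments, all of them in exons, and 307 lie in coding sequence. Of the 49 outside, 3 lie in the spacer of a signal, all in that of Trav13-3, and 46 lie beyond the signal positions.

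Counts are given as counts or as CPM, the counts divided by the autosomal SNP counts of the library and multiplied by 1000000. Autosomal SNP counts numbered 18906729 for the B cells of E6.2 and, for the T cells, 12671054 (E6.43) and 10624832 (E15.10). In E15.10, DNA rich in A and T was under-represented genome-wide: SNPs with a GC content below 0.4 took 4.1% of its counts, against 8.55% in E6.2 and 7.89% in E6.43. Olfactory and vomeronasal receptor genes outside the locus, which T cells do not rearrange, had a depth of 0.461 and 0.356 of that in E6.2. Values of E15.10 are given also after scaling within bins of GC content in a narrow window and in one of 10 kb on either side of the SNP, a correction chosen after the data were seen, which brought these families to 0.987 and 0.964. The scaling was set on autosomal SNPs outside the locus, these families included, so their return toward 1 is no independent check of it. In E6.43 the same families were at 0.933 and 0.909 and, corrected, at 0.992 and 0.99. As a check of the labels, the D and J segments of the immunoglobulin heavy chain, which B cells delete, were 3.39-fold (E6.43) and 2.97-fold (E15.10) deeper in the T cell libraries than in E6.2, at 4 SNPs.

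Depth over the whole locus was lower in both T cell libraries. The SNPs of the segments took 3461 CPM in E6.2, against 2004 in the T cells of E6.43 and 1160 in those of E15.10. The SNPs of the other genes in the same interval took 45.6, 43.6 and 25.8. In E6.2, Olfr1508 and Olfr1509 held 620 and 185 of the 862 counts of these genes. Both are olfactory receptor genes between Trav1 and Trav2, at the upstream end, so they do not sample the rest of the interval. The median SNP of a segment had 180 counts in E6.2 but 30 in E15.10 and 60 in E6.43. Of the 379 SNPs, 332 had at least 20 counts in E6.2 and were compared. Of the 47 below that, 34 were at 0 counts in E6.2, 33 of these in all 3 libraries.

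**Figure D1:**
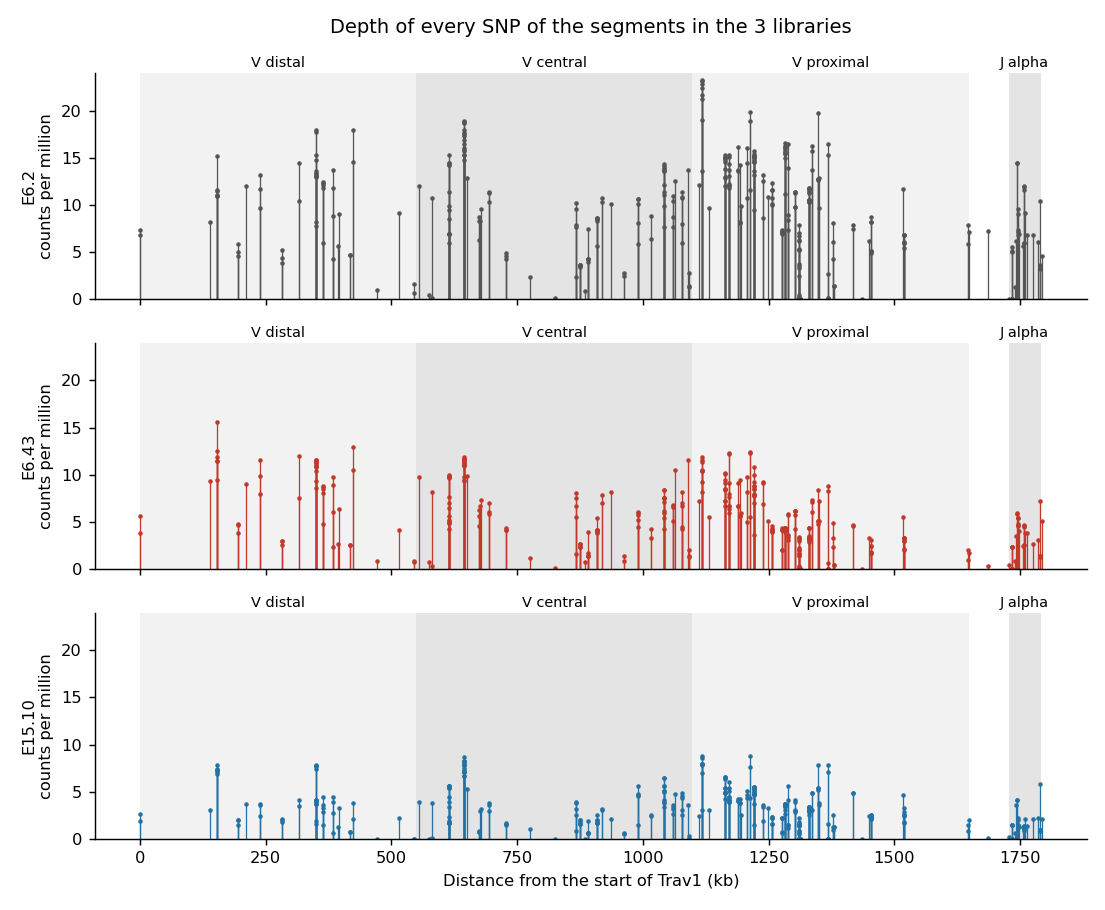
CPM at each of the 379 SNPs of TCR segments (vertical axis) against the distance from the start of Trav1 in kb (horizontal axis), with 1 panel per library. Shading marks the V distal, V central, V proximal and J alpha stretches, and the lone SNP between the last V segment and the J alpha stretch is Trdd1, at 7.19, 0.316 and 0.0941 CPM in the B cells and in the T cells of E6.43 and E15.10.

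In E6.43 the depth relative to E6.2 fell along the V segments, was lowest at the delta D segment, and was not distinguishable from that of E6.2 at Trac. Relative depth is the ratio of CPM, over SNPs with at least 20 counts in E6.2, and its 95% interval is exact for counting error alone. Neighbouring SNPs can share reads, so the intervals are too narrow. The V stretch was divided by length into 3 parts. The V distal part (chr14:52427928-52977123, 50 SNPs compared) had a relative depth of 0.794 (0.767 to 0.821). The V central part, up to base 53526319 (102 SNPs), had 0.652 (0.635 to 0.669), and the V proximal part, up to base 54075515 (151 SNPs), had 0.484 (0.473 to 0.494). The intervals of the 3 V parts do not overlap.

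Trdd1, whose segment is used only by the delta chain, had 136 counts in E6.2 and 4 in E6.43, a relative depth of 0.0439 (0.0118 to 0.115). The J alpha segments were divided in the middle, at base 54186923. The upstream J alpha part (19 SNPs) had a relative depth of 0.483 (0.448 to 0.521) and the downstream part (8 SNPs) 0.495 (0.434 to 0.564), and these intervals overlap each other and that of the V proximal part. Trac, at 1 SNP, had 86 counts in E6.2 and 64 in E6.43, a relative depth of 1.11 (0.791 to 1.55), so that a difference from E6.2 was not detectable at this depth. The other genes, mainly Olfr1508 and Olfr1509 at the upstream end of the interval, were at 0.941 (0.843 to 1.05). The SNPs within 2 Mb on either side were at 0.98 (0.972 to 0.988). Corrected for GC content, the V parts were at 0.83, 0.676 and 0.501, in the same order.

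In E15.10 all parts were below E6.2, and the V parts differed less from each other. Relative depth was 0.354 (0.337 to 0.372) in the V distal, 0.372 (0.359 to 0.385) in the V central and 0.32 (0.311 to 0.329) in the V proximal part. Corrected for GC content, the same parts were at 0.634 (0.603 to 0.665), 0.586 (0.566 to 0.606) and 0.508 (0.494 to 0.522), in falling order toward the D segments. Trdd1 had 1 count, a relative depth of 0.0131, or 0.0179 corrected. The upstream J alpha part was at 0.219 (0.196 to 0.245) and the downstream part at 0.327 (0.276 to 0.385), and corrected they were at 0.221 and 0.313. The J alpha values corrected with both windows lie within the uncorrected intervals, unlike those of the V parts. With the narrow window alone the J alpha parts were at 0.265 and 0.486, outside the uncorrected intervals.

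Trac had 22 counts in E15.10, a relative depth of 0.455 (0.271 to 0.734) and of 0.329 (0.196 to 0.531) corrected. The other genes of the interval had 0.549 (0.476 to 0.631), but 1.44 (1.25 to 1.65) corrected, above the level of E6.2. The 2 Mb flanks were at 1.07 (1.06 to 1.08), or 0.985 (0.976 to 0.994) corrected. The correction does not bring every gene of the region to 1, and a corrected V value of E15.10 is less firm than its interval. The other genes with at least 20 counts in E6.2 were the olfactory receptor genes Olfr1508 and Olfr1509 and the unnamed gene ENSMUSG00000096662, and they were at 0.91, 0.976 and 1.28 in E6.43, each with an interval that holds 1. In E15.10 they were at 0.548, 0.471 and 1.08, and corrected at 1.48, 1.53 and 1.45. How much of the lower uncorrected V depth of E15.10 goes with GC content and how much with DNA loss was not tested.

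**Figure D2:**
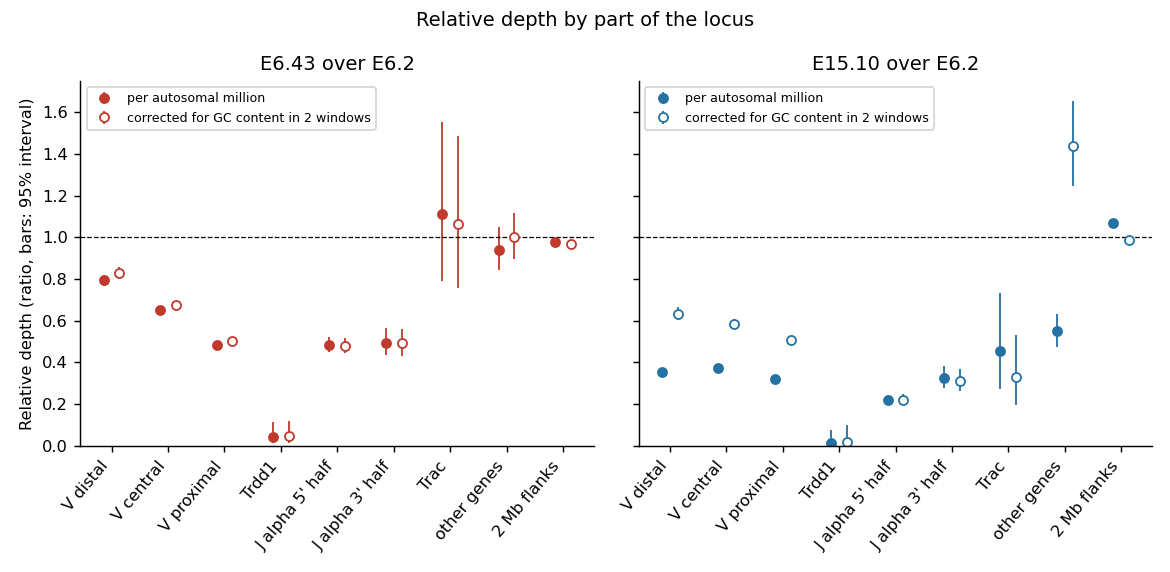
Relative depth (ratio of CPM to E6.2, vertical axis, from 0) of each part of the locus, of the other genes of the interval and of the 2 Mb flanks (horizontal axis), with E6.43 in the left panel and E15.10 in the right. Filled points are uncorrected, open points are corrected for GC content in 2 windows, and bars are 95% intervals of counting error; Trdd1 is lowest in both panels, at 0.0439 and 0.0131.

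The T cell libraries were also set against each other. At SNPs with at least 20 counts in E6.43, the corrected depth of E15.10 over E6.43 was 0.761 (0.722 to 0.802) in the V distal, 0.873 (0.84 to 0.907) in the V central and 1.02 (0.984 to 1.05) in the V proximal part. Uncorrected, these ratios were 0.448, 0.573 and 0.658, so that the level, but not the rising order, depends on the correction. In the upstream J alpha part E15.10 was lower than E6.43 with either scaling, with ratios of 0.451 (0.398 to 0.511) and 0.456 (0.402 to 0.517). In the downstream part the ratios were 0.656 (0.531 to 0.807) and 0.632 (0.511 to 0.778). With the narrow GC window alone the ratio was 0.534 (0.471 to 0.605) in the upstream part. In the downstream part it was then 0.887 (0.718 to 1.09), with an interval that holds 1. With 1 library each, the animal, its donor and the library cannot be told apart here.

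Single SNPs were set against the rest of the genome by their number under a relative depth of 0.5. In E6.43, 113 of the 332 SNPs of segments had a relative depth under 0.5, where 1.9% of all autosomal SNPs did. By part, these were 2 of 50 in the V distal, 11 of 102 in the V central, 83 of 151 in the V proximal, 11 of 19 in the upstream J alpha and 5 of 8 in the downstream J alpha part, and the SNP of Trdd1. In the 2 Mb flanks there were 12 of 1152. Corrected for GC content there were 103 of 332, against 1.74% of autosomal SNPs. In E15.10, 311 of 332 were under 0.5, but so were 22.7% of autosomal SNPs, and corrected the numbers were 142 of 332 and 5.57%. Corrected counts by part in E15.10 were 14 of 50, 30 of 102 and 70 of 151 in the V parts, and 18 of 19 and 8 of 8 in the J alpha parts.

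Single segments were compared where they had at least 20 counts in E6.2, which 87 did. In E6.43, 84 of the 87 had a relative depth under 1, against 49.2% of autosomal genes, and 25 were under 0.5, against 0.997% of genes. Corrected for GC content, 23 were under 0.5, against 0.902% of genes. The exceptions at or above 1 were Trav2, Trav3-1 and Trac, of which the first pair is named after its values were seen. In E15.10, all 87 were under 1 (53.3% of genes) and 82 under 0.5 (21.9% of genes), and corrected, 42 were under 0.5 (2.91% of genes) and Trav19 was above 1, at 1.62. Across the 70 V segments the rank correlation (Spearman) of relative depth with position was -0.65 in E6.43 and 0.01 in E15.10, or -0.15 corrected. These points share library, depth and base composition, and the correlation is a description.

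**Figure D3:**
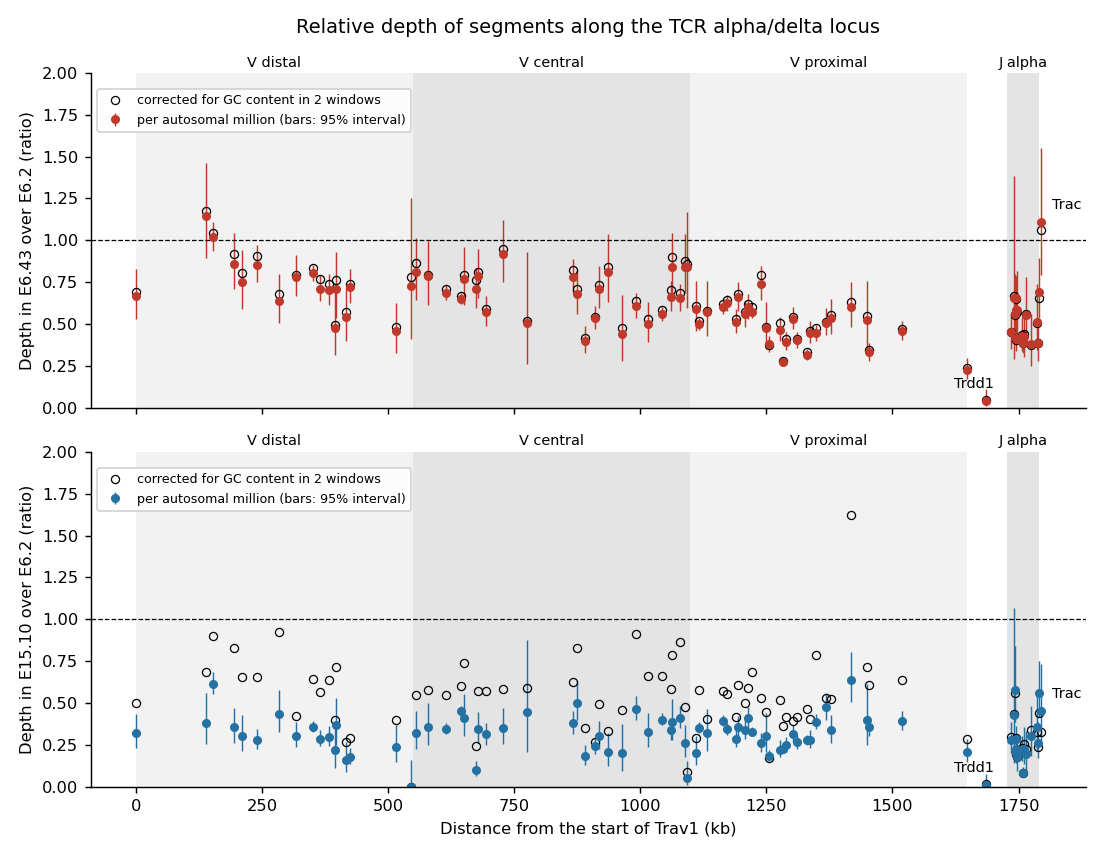
Relative depth of the 87 segments with at least 20 counts in E6.2 (ratio to E6.2, vertical axis) against the distance of their first SNP from the start of Trav1 in kb (horizontal axis), for E6.43 above and E15.10 below. Filled points with 95% intervals of counting error are ratios of CPM and open circles are corrected for GC content; in E6.43 the points run from 1.14 at Trav2 down to 0.0439 at Trdd1, rise in the J alpha stretch and reach 1.11 at Trac.

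At the upstream end, Trav1, the first V segment of the locus, had 267 counts in the B cells of E6.2, and 119 (E6.43) and 48 (E15.10) in the T cells, or 14.1, 9.39 and 4.52 CPM. Its relative depth was 0.665 (0.531 to 0.828) for E6.43 and 0.32 for E15.10 (0.5 corrected). The olfactory receptor gene Olfr1510, the nearest measured gene upstream of Trav1, had 39.2, 34.5 and 31.5 CPM and a relative depth of 0.88 (0.78 to 0.992) for E6.43 and 0.805 for E15.10 (1.12 corrected). Trav1 was below its neighbour outside the locus in both T cell libraries, but in E6.43 their intervals overlap.

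Trav2 and Trav3-1, the next V segments with SNPs, were not distinguishable in depth between E6.43 and E6.2. Trav2 had 154 counts in the B cells and 118 and 33 in the T cells, a relative depth of 1.14 (0.892 to 1.46) in E6.43. Trav3-1 had 1344, 917 and 464 counts at 6 SNPs, a relative depth of 1.02 (0.935 to 1.11) for E6.43 and 0.614 for E15.10 (0.9 corrected). Trav1 lies upstream of both and was lower, so the order along the locus was not strict.

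In E6.43 the best covered V segments followed the order of the parts. Trav8d-1 of the V distal part had 161 CPM in the B cells of E6.2, and 129.5 (E6.43) and 57.7 (E15.10) in the T cells, relative depths of 0.804 and 0.358 (0.643 corrected). Trav13d-4 of the V central part had 253, 165 and 114 CPM, relative depths of 0.652 and 0.452 (0.603 corrected). Trav15-2-dv6-2 of the V proximal part had 186.8, 106.5 and 61.1 CPM, relative depths of 0.57 and 0.327 (0.685 corrected). Uncorrected depth was highest in E6.2 and lowest in E15.10 at each of the 3 segments, but corrected, Trav15-2-dv6-2 was deeper in E15.10 than in E6.43 (0.685 against 0.602 of E6.2). The corrected values of E15.10 did not follow the order of the parts, since Trav15-2-dv6-2 was the highest of these segments.

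V segments that the delta chain can use were compared within the V proximal part, where 9 were measured. Of these, 6 are Trav segments shared with delta and 3 are Trdv segments. In E6.43 the relative depth of the 9 ran from 0.227 to 0.571 with a median of 0.379. That of the other 19 V proximal segments ran from 0.393 to 0.738 with a median of 0.533. The 6 shared segments alone ran from 0.273 to 0.571 with a median of 0.453, and the 3 Trdv segments had a median of 0.331. In E15.10 the medians of the 9 and of the other 19 were 0.321 and 0.336, or 0.465 and 0.524 corrected. The 6 shared segments there had 0.3, or 0.436 corrected, and the Trdv segments 0.359, or 0.608 corrected. Among the shared segments, Trav6-7-dv9 had 2903 counts in the B cells of E6.2, and 532 (E6.43) and 365 (E15.10) in the T cells. Its relative depths were 0.273 and 0.224 (0.362 corrected). Trav13-4-dv7 had 2295, 488 and 359 counts, relative depths of 0.317 and 0.278 (0.465 corrected). Trav4-4-dv10 had 1251, 318 and 129 counts, relative depths of 0.379 and 0.183 (0.171 corrected), the lowest of the V proximal part in E15.10. Besides Trav15-2-dv6-2 above, Trav15-1-dv6-1 and Trav21-dv12 were at 0.571 and 0.527 in E6.43. Trav14d-3-dv8, the only such segment measured in the V central part, was at 0.771. The delta-usable segments lie at various positions in the part, and their distance from the D segments was not separated from their class.

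The V segments named for the delta chain lie closest to the D segments. Trdv1 had 45.1, 14.9 and 16.2 CPM in the B cells and in the T cells of E6.43 and E15.10, relative depths of 0.331 and 0.359 (0.608 corrected). Trdv2-1 had 55.4, 25.3 and 21.7 CPM, relative depths of 0.457 and 0.393 (0.64 corrected). Trdv4 had 20.8, 4.74 and 4.33 CPM, relative depths of 0.227 (0.17 to 0.299) and 0.208 (0.287 corrected). Trdv4 was the lowest V segment of all in E6.43, and its 3′ end lies 37953 bases upstream of Trdd1.

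The lowest values of the other parts were found in both T cell libraries at various segments. In E6.43 the lowest V distal segment was Trav13d-2 (0.457) and the lowest V central segment Trav6n-7 (0.402). In E15.10, Trav3d-3 had 0 counts, where E6.2 had 43 and E6.43 had 21, so it was at least 8.05-fold lower than E6.2, or 4.07-fold corrected, taking 3 counts as the floor. Trav11 had 3 counts in E15.10, 103 in E6.2 and 58 in E6.43, a relative depth of 0.0518 (0.0888 corrected). Trav11 is the V segment of the semi-invariant receptor of natural killer T cells. V segments with d or n in their names belong to repeated copies of the V cluster that are nearly alike in sequence, so counts of Trav3d-3, Trav13d-2 and Trav6n-7 may be split among copies and are uncertain. The same holds for Trav11, whose copy Trav11d had 170, 81 and 35 counts.

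Among J alpha segments, Traj53, the first one measured, had 297 counts in the B cells of E6.2, and 90 (E6.43) and 47 (E15.10) in the T cells, relative depths of 0.452 and 0.282 (0.294 corrected). Traj32 was the best covered, with 670, 174 and 31 counts, and had the lowest relative depth of the upstream part in both libraries, 0.387 (0.326 to 0.459) and 0.0823 (0.0555 to 0.118). In the downstream part, Traj27 had 129, 48 and 14 counts (0.555 and 0.193), Traj16 had 129, 33 and 22 counts (0.382 and 0.304) and Traj3 had 197, 51 and 29 counts (0.386 and 0.262). Traj2, the last one measured, had 196, 91 and 62 counts and relative depths of 0.693 (0.534 to 0.893) and 0.563 (0.416 to 0.752), or 0.439 corrected. It was the highest J alpha segment in E6.43, and in E15.10 only Traj48 exceeded it, at 0.578.

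Downstream of the J alpha segments depth was higher again in E6.43, whereas in E15.10 the interval of Trac overlaps that of the downstream J alpha part. Trac had 4.55 CPM in the B cells of E6.2, and 5.05 (E6.43) and 2.07 (E15.10) in the T cells. Dad1, a gene for a subunit of the oligosaccharyltransferase and the nearest measured gene downstream of Trac, had 9.47, 11.4 and 13.7 CPM, a relative depth of 1.21 (0.964 to 1.51) for E6.43 and 1.45 (1.16 to 1.82) for E15.10, or 1.27 corrected. In E6.43 neither gene was distinguishable from E6.2 or from the other. In E15.10, Trac was below E6.2 and Dad1 above it, in both scalings, with Trac resting on 1 SNP.

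Depth was lower on both parental chromosomes in both T cell libraries. Over all segments the B6 allele had a relative depth of 0.59 (0.579 to 0.6) and the CAST allele 0.557 (0.543 to 0.571) in E6.43. In E15.10 the values were 0.344 (0.336 to 0.352) and 0.318 (0.307 to 0.329), and corrected 0.534 and 0.493. In the flanks the alleles were at 0.97 and 0.993 in E6.43 and at 1.05 and 1.09 in E15.10.

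Within E6.43 the order of the alleles, summed over all SNPs of a part, changed along the V stretch, but segments within a part differed. In the V distal part the B6 allele was at 0.833 (0.799 to 0.868) and the CAST allele at 0.719 (0.677 to 0.763). In the V central part they were at 0.694 (0.673 to 0.715) and 0.547 (0.519 to 0.576). In the V proximal part the order was the opposite, with 0.461 (0.448 to 0.474) and 0.523 (0.505 to 0.542). The intervals of the alleles do not overlap in any of the 3 parts. Each order held under every alternative run, but no run left out the V segments with d or n in the name together. The size in the V distal part rested partly on Trav8d-1, without which the B6 and CAST alleles were at 0.808 and 0.757. The size in the V central part rested partly on Trav13d-4, without which the alleles were at 0.667 and 0.609. Both segments have d in the name. In the V central part, AI rose from E6.2 to E6.43 in Trav13d-4 (0.6415 to 0.774) and Trav8d-2 (0.534 to 0.718). It fell in Trav8-1 (0.807 to 0.708), Trav10 (0.835 to 0.693) and Trav4-2 (0.602 to 0.499), the best covered ones without d or n. Other segments without d or n went either way. In the V distal part, Trav3-1 went from 0.634 to 0.604. The order of the alleles in these parts without all d and n copies was not tested. In the J alpha parts the intervals of the alleles overlapped, with 0.48 and 0.488 upstream and 0.474 and 0.528 downstream.

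In E15.10 the V distal alleles were at 0.348 (0.328 to 0.37) and 0.366 (0.337 to 0.397), the V central alleles at 0.384 (0.369 to 0.4) and 0.34 (0.318 to 0.363) and the V proximal alleles at 0.328 (0.317 to 0.339) and 0.307 (0.292 to 0.321). Only the V central intervals do not overlap. The upstream J alpha alleles were at 0.242 (0.211 to 0.277) and 0.18 (0.146 to 0.219), and the downstream ones at 0.319 and 0.339. Of the 4 counts left at Trdd1 in E6.43, 2 were of each allele, and the 1 count left in E15.10 was of the CAST allele, where E6.2 had 94 B6 and 42 CAST counts.

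**Figure D4:**
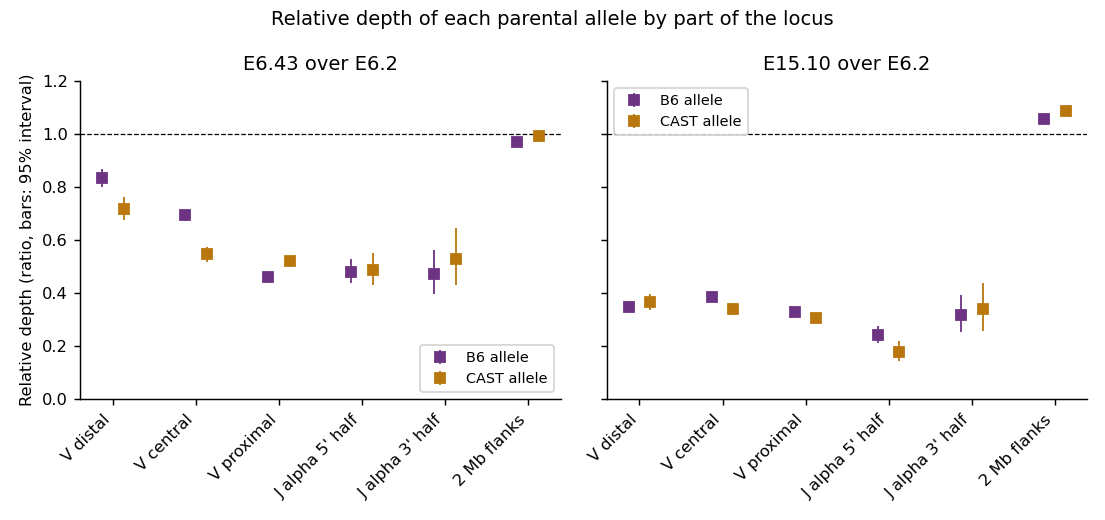
Relative depth of the B6 and the CAST allele (ratio of CPM to E6.2, vertical axis, from 0) in the V and J alpha parts and in the 2 Mb flanks (horizontal axis), for E6.43 on the left and E15.10 on the right. Bars are 95% intervals of counting error. In E6.43 the B6 allele is the higher one in the V distal and V central parts and the lower one in the V proximal part (0.461 against 0.523). The sums include V segments with d or n in the name.

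AI was far from balance at many V segments in all 3 libraries, including the B cells. Over SNPs with at least 20 counts, AI was 0.661 (Wilson 95% interval 0.657 to 0.664) in the B cells of E6.2, and 0.675 (0.669 to 0.681, E6.43) and 0.683 (0.674 to 0.691, E15.10) in the T cells, where the median autosomal gene had 0.537, 0.538 and 0.537. The flanks were at 0.555, 0.548 and 0.545. In the range that the study's methods set aside as loss of heterozygosity, AI under 0.25 or over 0.75, there were 18 SNPs at the CAST end and 103 at the B6 end in E6.2, of 332, against 6.36% of autosomal SNPs. For E6.43 the numbers were 13 and 107 of 311 (6.84% of autosomal SNPs), and for E15.10 they were 2 and 95 of 248 (5.77%).

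The skew was shared in part by the libraries. Of 248 SNPs with at least 20 counts in all 3, 55 were over 0.75 in every library and 2 under 0.25 in every library, 68 were in the range in some libraries only, and 0 were at opposite ends in different libraries. Of these SNPs, 72 lie in V segments with d or n in the name, of which 54 were in the range in at least 1 library, against 71 of the other 176. Reads of near-identical copies can be assigned to another copy, and the part of this in the skew was not tested. The V proximal part had AI of 0.636 in the B cells, and of 0.605 (E6.43) and 0.645 (E15.10) in the T cells. The upstream J alpha part had 0.63, 0.625 and 0.635, and the downstream part 0.602, 0.542 and 0.527. At Trac, AI was 0.698 (0.594 to 0.785), 0.703 (0.582 to 0.801) and 0.636 (0.43 to 0.803), all 3 intervals overlapping.

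**Figure D5:**
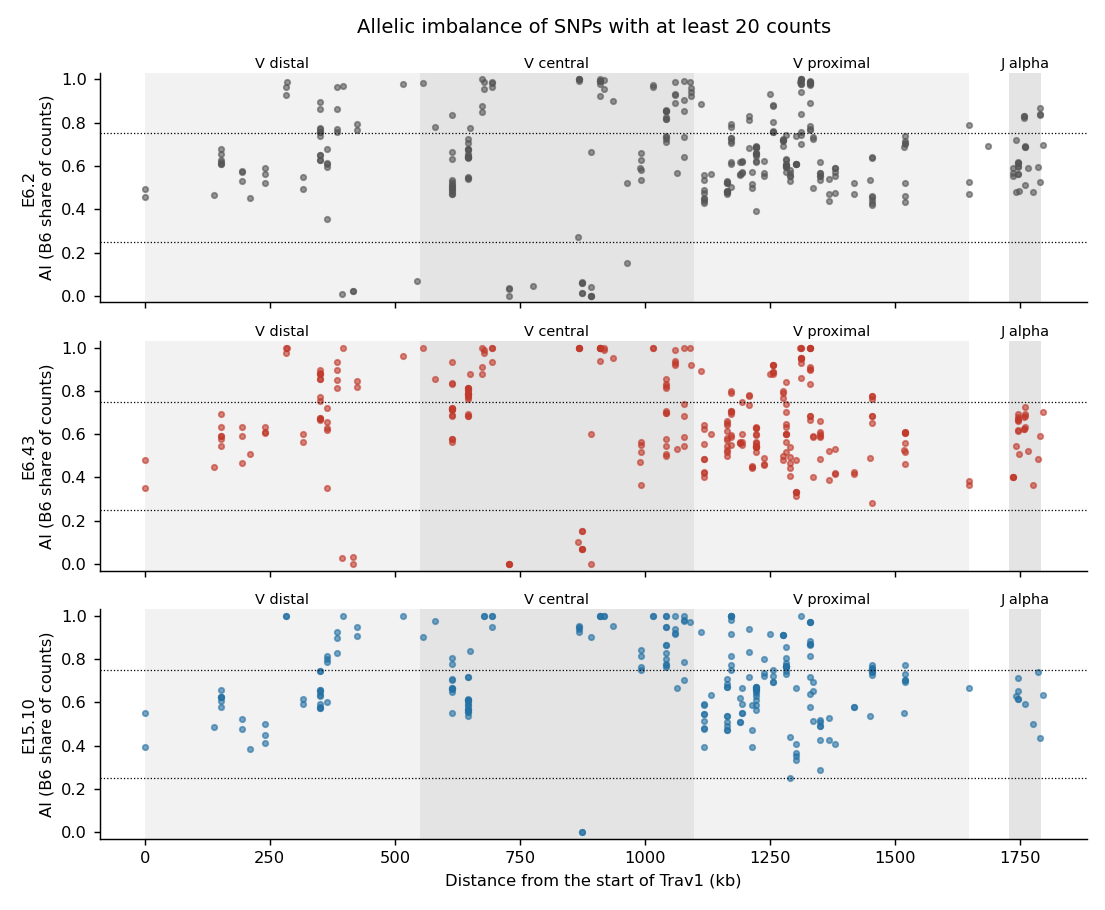
AI (B6 share of counts, vertical axis, 0 to 1) of SNPs with at least 20 counts in that library against the distance from the start of Trav1 in kb (horizontal axis), with 1 panel per library and dotted lines at 0.25 and 0.75. Runs of SNPs near 1 stand at similar distances in the 3 libraries, mainly in the V central part, where the median SNP had 0.709, 0.784 and 0.823. Under 0.25 there are 18 SNPs in E6.2 and 13 in E6.43 but 2 in E15.10.

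Differences of AI between libraries were tested at each SNP with at least 20 counts in both, by a two-sided Fisher's exact test adjusted (Benjamini-Hochberg) over all autosomal SNPs. Between E6.43 and E6.2, 10 of 311 SNPs passed, in 3 segments, where 0.325% of autosomal SNPs did. Between E15.10 and E6.2, 10 of 248 passed, in 3 segments, and between E15.10 and E6.43 19 of 248, in 8 segments, against 2.53% of autosomal SNPs in each. The test compares the reads of 2 libraries and not conditions, and SNPs of 1 segment share reads. Among SNPs at least 300 bp apart, 1, 1 and 3 of the locus passed. The share of autosomal SNPs that passed with this spacing was not taken, so these counts are not set against the genome.

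The SNPs that passed between E6.43 and E6.2 lie in Trav8d-2, Trav13-3 and Trav8d-1. In Trav8d-2, AI over the segment was 0.534 (E6.2) and 0.718 (E6.43), and its SNP at base 53042706 had an adjusted p of 0.0159 by Fisher's exact test, the B6 counts being 129 of 274 (E6.2) and 87 of 122 (E6.43). In Trav13-3, annotated as a pseudogene, the shift went the other way, from 0.633 to 0.352, at SNPs that all lie downstream of the annotated segment. Its SNP at base 53730128, beyond its signal, had an adjusted p of 0.025 by the same test. Relative depth was 0.688 and 0.533 in these segments. Between E15.10 and E6.2, 7 of the 10 SNPs lie in Trav4-3, whose AI was 0.687 in E6.2, but 0.9 in E15.10 (and 0.69 in E6.43). The smallest adjusted p, 9.26e-06 by Fisher's exact test, was at its base 53599208, with 153 B6 counts of 247 in E6.2 but 46 of 47 in E15.10, beside 57 of 97 in E6.43. At 4 other SNPs of this segment 0 CAST counts were left in E15.10. The relative depth of the segment there was 0.345 (0.551 corrected), and at Trav7-6 the shift was toward CAST, from 0.553 to 0.25 at base 53717164.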

How the data were processed

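Whole exomes were captured (Agilent SureSelect Mouse All ExonV6) from DNA of 3 animals, 1 library each. Per the labels, reads were processed with cutadapt 1.14, Trim Galore, STAR 2.5.4a, SAMtools and GATK on GRCm38, and the authors deposited whole-number counts of reads of the B6 (reference) and CAST (alternative) allele at each SNP and summed per gene. Settings for the exome reads and the handling of duplicates are not given in the sources used here. The exome counts were based on the authors' RNA pipeline, which aligned reads to the reference and to an imputed CAST genome and kept unique alignments, so reads shared by repeated V segments may be lost. Whether reference bias affects AI was not tested. A table of the whole series, deposited for genes with at least 90 counts, also holds AI as a fraction with its interval, a binomial p-value and a call, and of these the counts alone were used, as an alternative. It lists the same totals as the per-library files, and 0 columns of other samples were used.

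SNP positions occurred once each, and SNP counts summed to the gene counts. Segments were named from GENCODE release M21, in which 98 of 101 genes of the interval were found. Counts were scaled to the autosomal total of each library. The depth is given in the report; intervals (exact for ratios of counts, Wilson for AI, 95%) cover counting error only, since PCR reads are not independent molecules. GC content was taken from the GRCm38 genome, 150 bp and 10 kb on either side of each SNP, in 20 by 20 bins of equal numbers of SNPs. The only test was Fisher's exact test per SNP, with a threshold of 0.05 after adjustment. Scripts used Python 3.11.15, NumPy 2.4.6, SciPy 1.17.1 and pandas 2.3.3 and were tested on simulated data.

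Segments named are Trac, the delta segments and V segments shared with delta, the first, last and best covered V and J alpha segments, the lowest of each part, other genes of the interval with at least 20 counts and the nearest genes outside. Others were named after their values were seen. The members, parts and lists were chosen with earlier results of these data known. Alternatives were other scalings, SNP minimums of 1 and 50, SNPs at least 300 bp apart, medians over SNPs, leaving out the best covered gene, and other thresholds.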

Additional observations from a re-analysis of the deposited data

Results flagged for a closer look

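The estimates of the T cell libraries at Trac fell on opposite sides of E6.2, with a relative depth of 1.11 (0.791 to 1.55) in E6.43, which was not distinguishable from E6.2, and of 0.455 (0.271 to 0.734) in E15.10 (0.329 corrected for GC content). The value rests on 1 SNP with 86, 64 and 22 counts, and the difference between the animals, as opposed to the libraries, was not tested.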

How the results depend on the processing

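Of 758 values computed under an alternative, 576 stayed within the 95% interval of the reported value (for counts, within 1.5 times) and 178 moved outside it on the same side of E6.2 or of balance, 4 turned to the other side, and 39 of these 178 and 4 were moves by over 1.5 times. The 4 that turned were values of E15.10 with both GC windows: the other genes of the interval (0.549 to 1.44), Olfr1508 (0.548 to 1.48), Olfr1509 (0.471 to 1.53) and Trav19 (0.64 to 1.62). In E6.43, relative depth of the V distal, central and proximal parts was 0.83, 0.676 and 0.501 with GC bins in both windows (added after the data were seen). It was 0.738 in the V distal and 0.42 in the downstream J alpha part as a median over SNPs, and 0.7001 and 0.52 in the V central and proximal parts at SNPs at least 300 bp apart. Over all segments the B6 value was 0.601 (flank scaling), 0.61 (both GC windows), 0.619 (SNPs apart), 0.552 (median) and 0.575 (without the best covered gene), and the CAST value 0.576 (both GC windows), 0.587 (SNPs apart) and 0.533 (median).

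In E15.10, the V parts were at 0.377, 0.395 and 0.34 with scaling to chromosome 14, at 0.329, 0.345 and 0.297 with scaling to the flanks, and at 0.634, 0.586 and 0.508 with both GC windows. The V distal part was at 0.387 (narrow GC window), 0.321 (SNPs apart) and 0.309 (median), the V central part at 0.341 (SNPs apart) and 0.344 (without its best covered gene) and the V proximal part at 0.311 (median). The upstream J alpha part was at 0.265 (narrow GC window) and 0.261 (without Traj32), and the downstream part at 0.486 (narrow GC window) and 0.264 (median). The B6 value over all segments was 0.366 (chromosome 14), 0.32 (flanks), 0.353 (narrow GC window), 0.534 (both windows), 0.33 (SNPs apart), 0.326 (median) and 0.355 (at least 10 counts of each allele in E6.2, added after the data were seen). The CAST value was 0.338 (chromosome 14), 0.295 (flanks), 0.493 (both windows), 0.267 (median) and 0.302 (without the best covered gene). The cause of these moves was not tested.

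AI over all segments was 0.64 in the B cells and 0.652 (E6.43) and 0.694 (E15.10) in the T cells as a median over SNPs, 0.682 and 0.625 in the T cell libraries at SNPs with at least 50 counts, and 0.666 and 0.693 without the best covered gene. Under a relative depth of 0.75 there were 282 SNPs (E6.43), and under 0.25 there were 6 (E6.43) and 84 (E15.10). How many autosomal SNPs lie under 0.75 or 0.25 was not counted, so these numbers are not set against the genome. Both GC windows left 142 SNPs of E15.10 under 0.5. SNPs with different AI fell to 1 (E6.43 and E6.2), 1 (E15.10 and E6.2) and 3 (E15.10 and E6.43) at SNPs at least 300 bp apart. They fell to 3 and 5 in the comparisons with E15.10 at a minimum of 50 counts. Both settings test fewer SNPs, and the shares of autosomal SNPs that passed under them were not taken. Gene counts of the library files, and of the series table where it lists the gene, left each named gene within its interval. No paired analysis was possible because each group is 1 library. Depth limits Trdd1 and Trac, which rest on 1 SNP each, and the J alpha SNPs of E15.10, of which 5 of 24 upstream and 4 of 8 downstream reached 20 counts.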
